A study of Mus musculus with 26 samples.

Results

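The Hox genes of clusters A to D are homeobox genes that were taken here as a set of silent Polycomb targets. They were chosen by symbol alone, as every mouse gene in the count table named Hoxa, Hoxb, Hoxc or Hoxd and a number, so no measured value entered the choice. The rule found 39 symbols on 40 Ensembl gene IDs among the 37991 genes of the table, since Hoxa3 is listed under 2 overlapping IDs. PolyA RNA was sequenced in 26 libraries from rd10 mice, which carry a mutation in the rod phosphodiesterase gene Pde6b and lose their rods. In 5 experiments, mice received daily injections of an inhibitor of a chromatin enzyme or of saline from postnatal day 9 to postnatal day 24, although the text of the study gives DZNep on alternate days later in the course. Whole retinas came from mice given DZNep (2 libraries, with 4 controls), UNC1999 (3 and 3), UNC0642 (2 and 2) or Romidepsin (3 and 3). Sorted rods came from a line homozygous for rd10 and for Nrl-EGFP, a transgene that marks rods through the Nrl promoter, given GSK2879552 or saline (2 and 2). By the labels and methods all mice, controls included, carried the rd10 mutation, and no group of healthy retinas was analysed. The genotype labels of 11 retinas end in other numbers, which rise from sample to sample, and they were read as rd10. UNC1999 was dissolved in a mixture of DMSO, PEG300, Tween-80 and saline. The text of the study gives saline for the controls of the UNC1999 sequencing, whereas its legend for stained sections and rod counts gives diluent only. If the controls received saline, compound and diluent cannot be told apart in that experiment. In the labels of 2 of the 3 UNC1999 libraries the treatment reads UNC2000 or UNC2001, and they were kept in this group by their title.

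Hox genes encode transcription factors that set position along the body axis of the embryo, and they stand in clusters in the order in which they are used. Outside their own domain they are held silent by Polycomb group complexes. Polycomb repressive complex 2 (PRC2) places 3 methyl groups on lysine 27 of histone H3 (H3K27me3) through EZH2 or EZH1, and Polycomb repressive complex 1 (PRC1) binds that mark. The adult eye derives from the head in front of the Hox domain, and Hox genes are textbook silent PRC2 targets there. UNC1999 inhibits EZH2 and EZH1 directly. DZNep blocks S-adenosylhomocysteine hydrolase, which slows methyl transfer by many enzymes and lowers EZH2 protein in many cells. UNC0642 inhibits the H3K9 methyltransferases G9a and GLP, Romidepsin inhibits class I histone deacetylases, and GSK2879552 inhibits the H3K4 demethylase LSD1. The question was whether these silent genes gained reads under DZNep or UNC1999. H3K27me3 itself was not measured in these libraries.

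Polycomb targets often begin in CpG-rich DNA, and the 250 bases before the start are printed for 2 Hox genes that had reads, Hoxb4 and Hoxa7, and for 2 that had none, Hoxa13 and Hoxd13. Sequences and coordinates are from RefSeq on GRCm38.p6, written 5′ to 3′ along the gene, with each CG in capitals.
Hoxb4 (chr11:96318017-96318266, plus strand): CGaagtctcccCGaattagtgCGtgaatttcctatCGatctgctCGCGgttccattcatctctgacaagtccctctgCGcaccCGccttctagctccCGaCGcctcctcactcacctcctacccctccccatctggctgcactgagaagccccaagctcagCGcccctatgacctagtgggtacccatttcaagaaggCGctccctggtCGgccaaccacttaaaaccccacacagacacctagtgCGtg
Hoxa7 (chr6:52218574-52218823, minus strand): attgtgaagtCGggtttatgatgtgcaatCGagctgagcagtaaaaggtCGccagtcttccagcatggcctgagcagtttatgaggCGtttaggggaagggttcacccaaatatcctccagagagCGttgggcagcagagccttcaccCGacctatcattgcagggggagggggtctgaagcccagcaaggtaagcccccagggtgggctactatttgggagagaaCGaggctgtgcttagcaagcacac
Hoxa13 (chr6:52260881-52261130, minus strand): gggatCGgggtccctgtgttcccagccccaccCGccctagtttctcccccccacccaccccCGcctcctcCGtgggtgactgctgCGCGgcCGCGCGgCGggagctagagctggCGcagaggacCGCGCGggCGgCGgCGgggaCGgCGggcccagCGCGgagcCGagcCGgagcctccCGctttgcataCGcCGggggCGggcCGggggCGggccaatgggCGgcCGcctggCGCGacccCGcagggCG
Hoxd13 (chr2:74667975-74668224, plus strand): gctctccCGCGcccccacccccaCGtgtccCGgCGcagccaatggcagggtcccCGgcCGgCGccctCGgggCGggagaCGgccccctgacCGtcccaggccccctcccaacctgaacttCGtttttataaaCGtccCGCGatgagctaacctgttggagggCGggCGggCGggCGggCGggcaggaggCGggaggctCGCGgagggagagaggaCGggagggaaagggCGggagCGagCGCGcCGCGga
The stretch held 14 CG pairs for Hoxb4 and 7 for Hoxa7, against 35 for Hoxa13 and 31 for Hoxd13. Those for Hoxa13 and Hoxd13 were the 2 highest among the Hox genes with a matched window. Other Hox genes without reads ran from 2 in 1 Hoxd11 window and 3 for Hoxa9 up to 28 for Hoxa5. The printed genes therefore do not stand for all Hox genes with or without reads. RefSeq windows were matched for 22 of the 39 symbols, in 24 windows that also take in the first 50 bases of the gene. Over those 300 bases, 10 of the 22 genes (45.5%) were CpG-rich, that is above 50% GC with more than 0.6 of the CG pairs expected from base content, taking the mean where a gene had 2 windows. Hoxa10 and Hoxd11 each had 1 CpG-rich window and 1 that was not, and by the mean Hoxa10 counted as CpG-rich and Hoxd11 did not. The share was 45.0% among 16236 other genes, close to that of the Hox genes. Among those with no window matched were Hoxa4, Hoxb2, Hoxb3, Hoxb5, Hoxb6, Hoxb7, Hoxb9, Hoxb13, Hoxc5, Hoxc6, Hoxc8, Hoxc9, Hoxc10, Hoxc11, Hoxc12 and Hoxc13.

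Almost no reads fell on the Hox genes in any library. Each retina library held 13732959 to 36354094 counted reads and each sorted rod library 7289460 to 19864491. Among 509362006 counted reads in all, 69 were assigned to a Hox gene. A library held 0 to 14 Hox reads (median 2), and 7 of 26 libraries held none. Of the 40 IDs, 33 (82.5%) were listed at 0 in all 26 libraries, and 38 never passed 3 reads in a library. The share listed at 0 was 15.3% among the 22337 protein-coding genes of the table and 32.5% (13 of 40) in a list of 40 other known Polycomb targets. No Hox gene reached 10 reads in a library. In a single library, 3 reads correspond to 0.0825 to 0.412 CPM, that is counts per 1000000 counted reads, and a gene below that level could not be told from 0. These limits cover counting error only.

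A count of 0 does not by itself show that a gene was silent. Reads that fall where annotated genes overlap can be dropped by the counter, and Atxn3 and Calcoco2, which many cells use, and the neuronal gene Isl2 were listed at 0 in all 26 libraries as well. By contrast 0 of 31 genes of the 26S proteasome and 0 of 12 genes of RNA polymerase II were listed at 0; these lists were chosen after the data had been seen. In the GENCODE M1 annotation of the same build, 38 of the 40 Hox IDs had at least 50% of their exon bases to themselves when strand was considered, and 37 of 40 when it was not. The exceptions with strand were 1 Hoxa3 ID, with 0.123% of its exon bases unique, and Hoxd4, with 32.6%. Without strand the other Hoxa3 ID, at 46.5%, joined them. For these, 0 reads carried little information. Each of the 7 genes with reads had at least 62.1% of its exon bases to itself under both settings.

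Cell type markers were checked against the labels. All 11 rod markers were detected, and their summed level was 53668 to 82518 CPM in sorted rods, against 9051 to 37252 in control retinas and up to 68769 in treated ones. The 6 Mueller glia markers summed to 264 to 460 CPM in sorted rods and 4531 to 10285 in whole retinas.

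**Figure D1:**
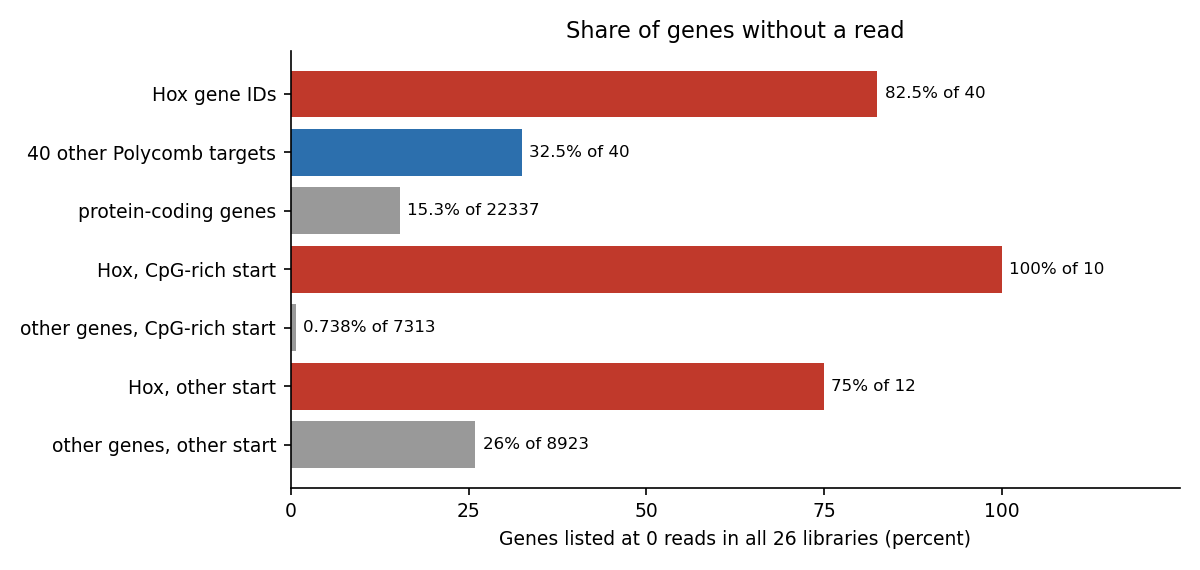
Share of genes listed at 0 reads in all 26 libraries, in percent on the horizontal axis, with the number of genes in each set beside its bar. Hox gene IDs stood at 82.5%, other Polycomb targets at 32.5% and all protein-coding genes at 15.3%; the lower bars split genes by whether the 300 bases around the start were CpG-rich.

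CpG-rich starts belong mostly to genes in wide use. Here all 10 CpG-rich Hox genes were listed at 0 in all libraries, whereas 54 of 7313 other CpG-rich genes (0.738%) were. Of the 12 Hox genes that were not CpG-rich by the mean, 9 were at 0, against 26.0% of 8923 other such genes. Counting a gene as CpG-rich if any window was, a rule added after seeing the data, put Hoxd11 with the first set. Then 11 of 11 CpG-rich Hox genes and 8 of 11 others were at 0, against 0.749% of 7877 and 27.7% of 8359 other genes. The 3 with reads were Hoxb4, Hoxa7 and Hoxd8, and Hoxb4 lay just under the limit, with 0.593 of the expected CG pairs and 58.0% GC. Among the 54 CpG-rich genes at 0 were further developmental regulators (Cdx2, Pax1 and Shox2 of the Polycomb list, and Foxd3, Gsc, Mnx1 and Olig2), but also Atxn3.

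Most of the few reads came from 1 cluster. The Hoxb cluster (NCBIM37, chromosome 11, 96055630 to 96229570) held 54 of the 69 reads. The Hoxa cluster (chromosome 6, 52105366 to 52210874) held 9 reads, the Hoxc cluster (chromosome 15, 102751534 to 102867274) held 5, and the Hoxd cluster (chromosome 2, 74506367 to 74603200) held 1. Within Hoxb, 53 reads fell on the neighbours Hoxb4 and Hoxb3. At 0 in all libraries were 7 of the 10 Hoxb genes, 8 of the 9 Hoxc genes and 8 of the 9 Hoxd genes. The silent genes came from both ends of the clusters, from the anterior genes Hoxb1 and Hoxd1 to the posterior genes Hoxa13 and Hoxd13.

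**Figure D2:**
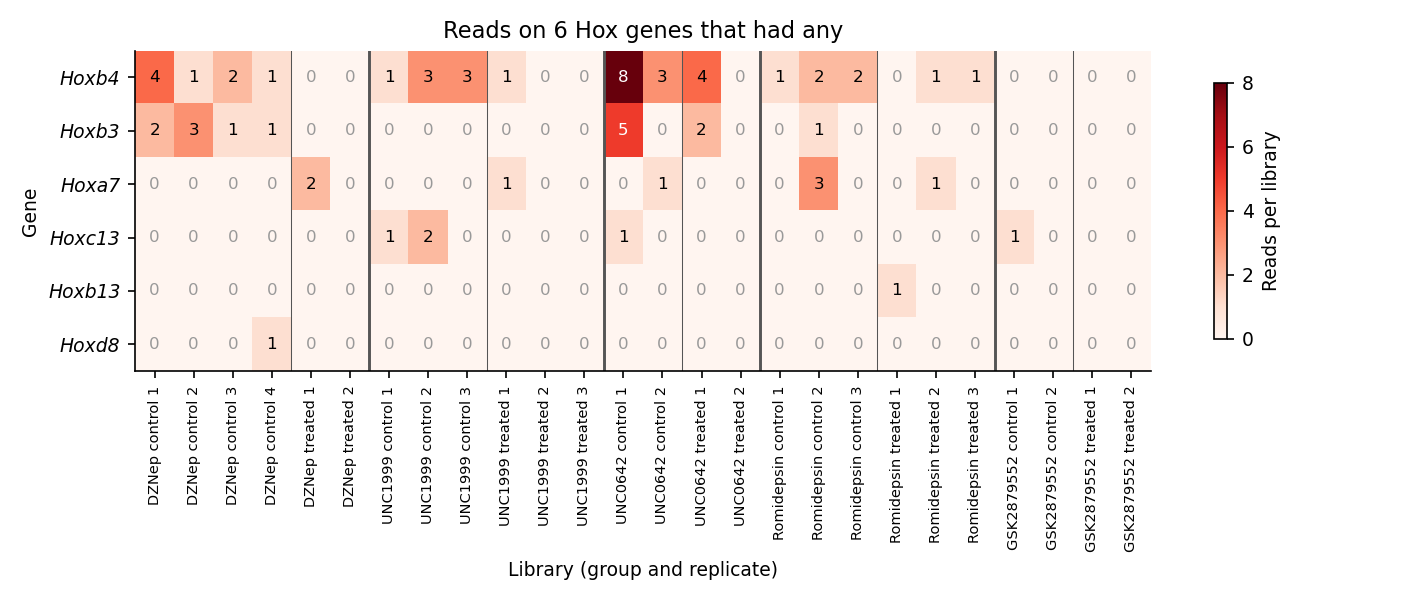
Raw reads in each library (columns, by experiment, group and replicate) on 6 Hox genes (rows) that had any; thick lines part experiments and thin lines part controls from treated libraries. Hoxb4 had reads in 16 libraries and never more than 8, and its row is empty in both DZNep libraries, in 2 of 3 UNC1999 libraries and in the sorted rods.

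Hoxb4, an anterior Hox gene best known from the hindbrain, spinal cord and blood progenitors, had the most reads. Its ID is ENSMUSG00000038692 and it lies on the plus strand of chromosome 11, from 96177998 to 96182952. It was read 38 times in 16 libraries. In the DZNep experiment the controls held 4, 1, 2 and 1 Hoxb4 reads and the treated retinas 0 and 0. In the UNC1999 experiment the controls held 1, 3 and 3 Hoxb4 reads and the treated retinas 1, 0 and 0. The DZNep groups did not overlap and the UNC1999 groups met at 1 read. Hoxb4 counts were 8 and 3 against 4 and 0 in the UNC0642 experiment, 1, 2 and 2 against 0, 1 and 1 in the Romidepsin experiment, and 0 in the 4 sorted rod libraries. The Romidepsin groups met at 1 read but did not overlap in CPM. Pooled by group in CPM, treated over control Hoxb4 ratios were 0 for DZNep, 0.153 for UNC1999, 0.492 for UNC0642 and 0.365 for Romidepsin. Their exact 95% intervals, for counting error only, reached up to 1.12, 1.19, 1.66 and 2.23 in that order, and so took in 1. On CPM, the two-sided exact permutation test over libraries gave p = 0.133 for DZNep, which is the smallest p that 4 against 2 libraries allow. The exact permutation p was 0.2 for UNC1999, 0.667 for UNC0642 and 0.1 for Romidepsin, where the smallest possible are 0.1, 0.333 and 0.1. None of these designs could reach 0.05.

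Hoxb3, the next gene in the cluster and also anterior, was read 15 times in 7 libraries. The DZNep controls held 2, 3, 1 and 1 Hoxb3 reads and the treated retinas held none (exact permutation p = 0.133, the smallest possible). In the UNC0642 experiment the counts were 5 and 0 in controls and 2 and 0 in treated retinas. The Romidepsin experiment held 1 read, in a control, and the UNC1999 libraries and sorted rods held none. Without strand in the counting, 62.1% of Hoxb3 exon bases would be its own, since the antisense gene Hoxb3os overlaps it; Hoxb3os itself held 2 reads, both in 1 Romidepsin library.

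Hoxa7, which acts in the trunk, was the only member with more reads in DZNep or UNC1999 retinas than in their controls. Its 8 reads stood in 5 libraries. In the DZNep experiment it held 2 reads in 1 treated retina and 0 in the other 5 libraries. In the UNC1999 experiment it held 1 read in 1 treated retina and 0 in the other 5. The treated and control ranges overlapped at 0 in both, with exact permutation p = 0.667 and p = 1.0. Untreated retinas reached the same level, with 3 Hoxa7 reads in 1 Romidepsin control and 1 read in 1 UNC0642 control. Control and treated groups of both experiments were at or under 3 reads, so no fold is given.

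Few other reads were left. Hoxc13, a posterior gene used in hair and nail, held 5 reads, of which 3 were in UNC1999 controls, 1 in a UNC0642 control and 1 in a sorted rod control. Hoxb13, used in the tail and prostate, held 1 read in a Romidepsin retina, and Hoxd8 held 1 read in a DZNep control. None of these 3 genes had a read in a DZNep or UNC1999 treated retina.

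**Figure D3:**
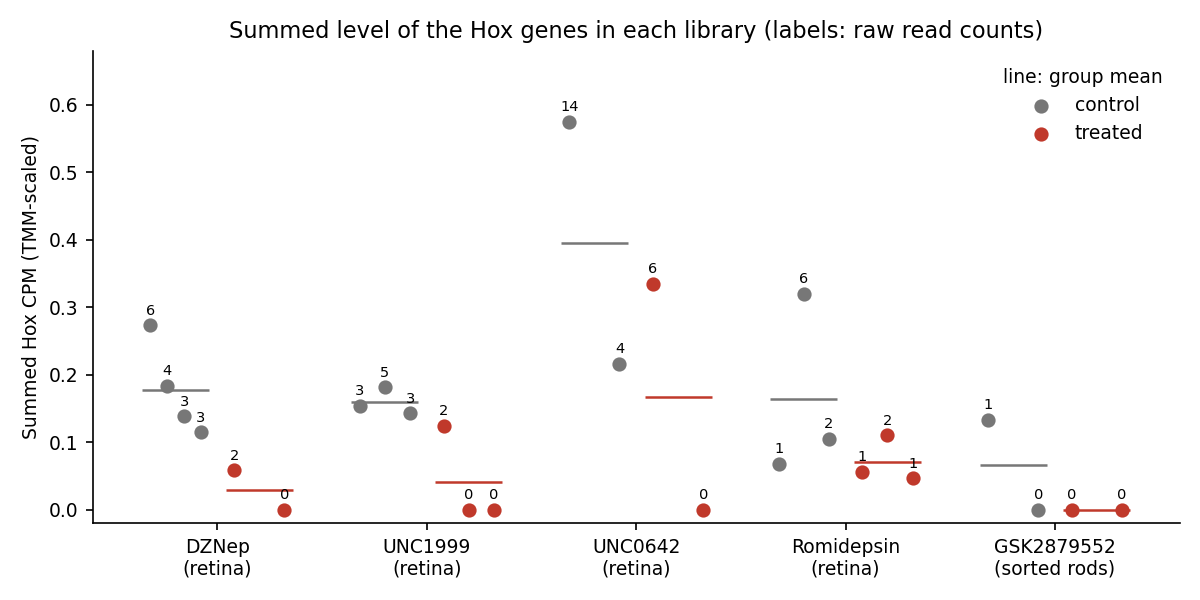
Summed level of the Hox genes in each library, in CPM scaled by trimmed mean of M values (TMM), for control (grey) and treated (red) libraries of the 5 experiments; bars mark group means and the figure beside each point is its raw read count. Both DZNep libraries and all 3 UNC1999 libraries lie below the controls of their own experiment, where the closest treated and control libraries held 2 and 3 reads.

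Summed over all Hox genes, the DZNep controls held 6, 4, 3 and 3 reads and the treated retinas 2 and 0. This was 0.177 ± 0.0699 CPM (SD, n = 4) against 0.0292 ± 0.0412 CPM (SD, n = 2), and the groups did not overlap. Pooled by group, the treated level was 0.240 of the control level, with an exact 95% interval from 0.0268 to 1.02. In the UNC1999 experiment the controls held 3, 5 and 3 Hox reads and the treated retinas 2, 0 and 0, or 0.159 ± 0.0201 CPM against 0.0414 ± 0.0717 CPM (SD, n = 3 each). The groups again did not overlap, and the treated level was 0.194 of the control level, with an exact 95% interval from 0.0209 to 0.890. In both experiments the closest libraries held 2 reads (treated) and 3 reads (control), at or under the floor of 3 reads in a library. For UNC1999 these stood at 0.124 and 0.143 CPM. The intervals cover counting error and not the spread between retinas, and no p was computed for a sum. No rise in Hox reads was seen under either compound, and both differences lay in the direction of fewer reads.

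Put as a limit, the 5 DZNep and UNC1999 retinas together held 116361962 counted reads. Only 4 of these were Hox reads, on Hoxa7 and Hoxb4, and 38 of the 40 IDs were at 0. For a gene at 0, a level of up to 3 reads over these 5 libraries, or 0.0258 CPM, is allowed by counting error. The summed Hox level was 0.0344 CPM there, without TMM scaling (exact Poisson 95% interval 0.00937 to 0.0880), against 0.216 (0.162 to 0.282) in the 12 control retinas. Those 12 include the UNC0642 and Romidepsin controls, and 14 of their 54 Hox reads came from 1 UNC0642 control. The controls of the same experiments stood lower, with TMM scaling, at 0.175 CPM (0.0998 to 0.284) for DZNep and 0.162 CPM (0.0807 to 0.289) for UNC1999.

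The other compounds gave no gain either. Under UNC0642 the summed counts were 14 and 4 in controls and 6 and 0 in treated retinas, and the groups overlapped (ratio 0.451, exact 95% interval 0.147 to 1.19). Under Romidepsin they were 1, 6 and 2 against 1, 2 and 1, again overlapping (ratio 0.406, interval 0.0914 to 1.45). Sorted rods held 1 Hox read in a control and none in the other 3 libraries, so both groups were at or under the floor and no ratio is given. Without Romidepsin control replicate 2, which held 6 of the 9 control reads, the log2 ratio moved from -1.30 to -0.36.

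By cluster, most of the control reads lay in Hoxb. The Hoxb genes held 15 reads in the DZNep controls and 0 in the treated retinas (ratio 0, exact 95% interval 0 to 0.535). The control level was 2.61 times a floor of 3 reads over the treated group, which leaves out the counting error of the controls. The UNC1999 experiment had 7 Hoxb reads in controls and 1 in treated retinas (ratio 0.153, exact 95% interval 0.00339 to 1.19). Hoxa did not have fewer reads, with 0 against 2 in the DZNep experiment and 1 against 1 in the UNC1999 experiment. In the same experiments Hoxc held 0 against 0 and 3 against 0 reads, and Hoxd held 1 against 0 and 0 against 0. None of these last counts passed the floor of 3 reads.

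Markers of several retinal cell types moved along with these comparisons. In the DZNep experiment the 11 rod markers summed to 18413 to 30810 CPM in controls and 56560 to 58077 CPM in treated retinas. The 8 vascular and mural markers summed to 746 to 768 CPM in controls and 586 to 621 CPM in treated retinas, and the 10 microglia and macrophage markers to 105 to 227 and 83.5 to 89.1 CPM. In the UNC1999 experiment the same lists went from 19690 to 37252 up to 50525 to 68769 CPM (rods), from 555 to 616 down to 359 to 462 CPM (vascular) and from 117 to 220 down to 63.7 to 83.5 CPM (microglia). Mueller glia and inner neuron markers also parted under DZNep, at 9019 to 9321 against 6275 to 7102 CPM for the 6 Mueller glia markers and 2447 to 2758 against 2131 to 2227 CPM for the 11 inner neuron markers. Under DZNep 4 of the 10 markers of retinal pigment epithelium and choroid melanocytes were called higher by edgeR, against 1.02% of all genes tested. Their summed levels overlapped, and Rlbp1 stands in this list and in the Mueller glia list. Under UNC1999 7 of the 10 were called higher, against 0.298% of all genes tested. These 10 markers summed to 473 to 689 CPM in UNC1999 controls and 914 to 1101 CPM in treated retinas. The 10 lens markers stood at 89.9 CPM in 1 DZNep retina, against 5.80 in the other and 7.49 to 9.05 CPM in the controls. No marker of these lists was at 0 in all 26 libraries. Sorted rods, at 41.5 to 65.3 CPM for the vascular list and 23.8 to 36.4 CPM for the microglia list, had 1 Hox read in 54250480 counted reads. The part of these shifts in the Hox counts was not tested. In such bulk tissue, fewer cells of a type and less RNA per cell cannot be told apart.

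No Hox gene could be tested for differential expression with the main method. In edgeR's quasi-likelihood test, 0 of 40 Hox IDs passed the filter on low counts in any of the 5 experiments, and 0 were therefore called. A call needed an adjusted p below 0.05 together with a log2 fold change beyond 1 in either direction. Of 16477 genes tested for DZNep, 1.71% were called, 1.02% higher and 0.686% lower. Of 15775 tested for UNC1999, 0.368% were called, 0.298% higher and 0.0697% lower; this balance turned in other fits, with 174 higher and 295 lower by the likelihood ratio test and 132 and 222 by DESeq2. Of 16049 tested for Romidepsin, 0.561% were called, 0.405% higher and 0.156% lower, and none without control replicate 2, control replicate 3 or treated replicate 3. Called were 0 of 16321 for UNC0642 and 0 of 14478 for GSK2879552. For UNC0642, 2407 genes had an unadjusted p under 0.05, and DESeq2 called 1 higher and 3 lower, the likelihood ratio test 23 and 11. For GSK2879552, 711 genes did, and DESeq2 called 31 higher and 16 lower, the likelihood ratio test 44 and 24. Without the filter, 4 Hox genes entered the test in each retina experiment and 1 in sorted rods, and 0 were called. Among them 1 gene, Hoxb4 in the DZNep experiment, had an unadjusted p under 0.05 in edgeR's fit across all genes, at 0.0438 (edgeR adjusted p = 0.168). Its fitted log2 fold change of -4.11 depends on the prior count, because both treated retinas were at 0. The likelihood ratio test and DESeq2, run on the filtered genes, tested 0 Hox genes and called 0.

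**Figure D4:**
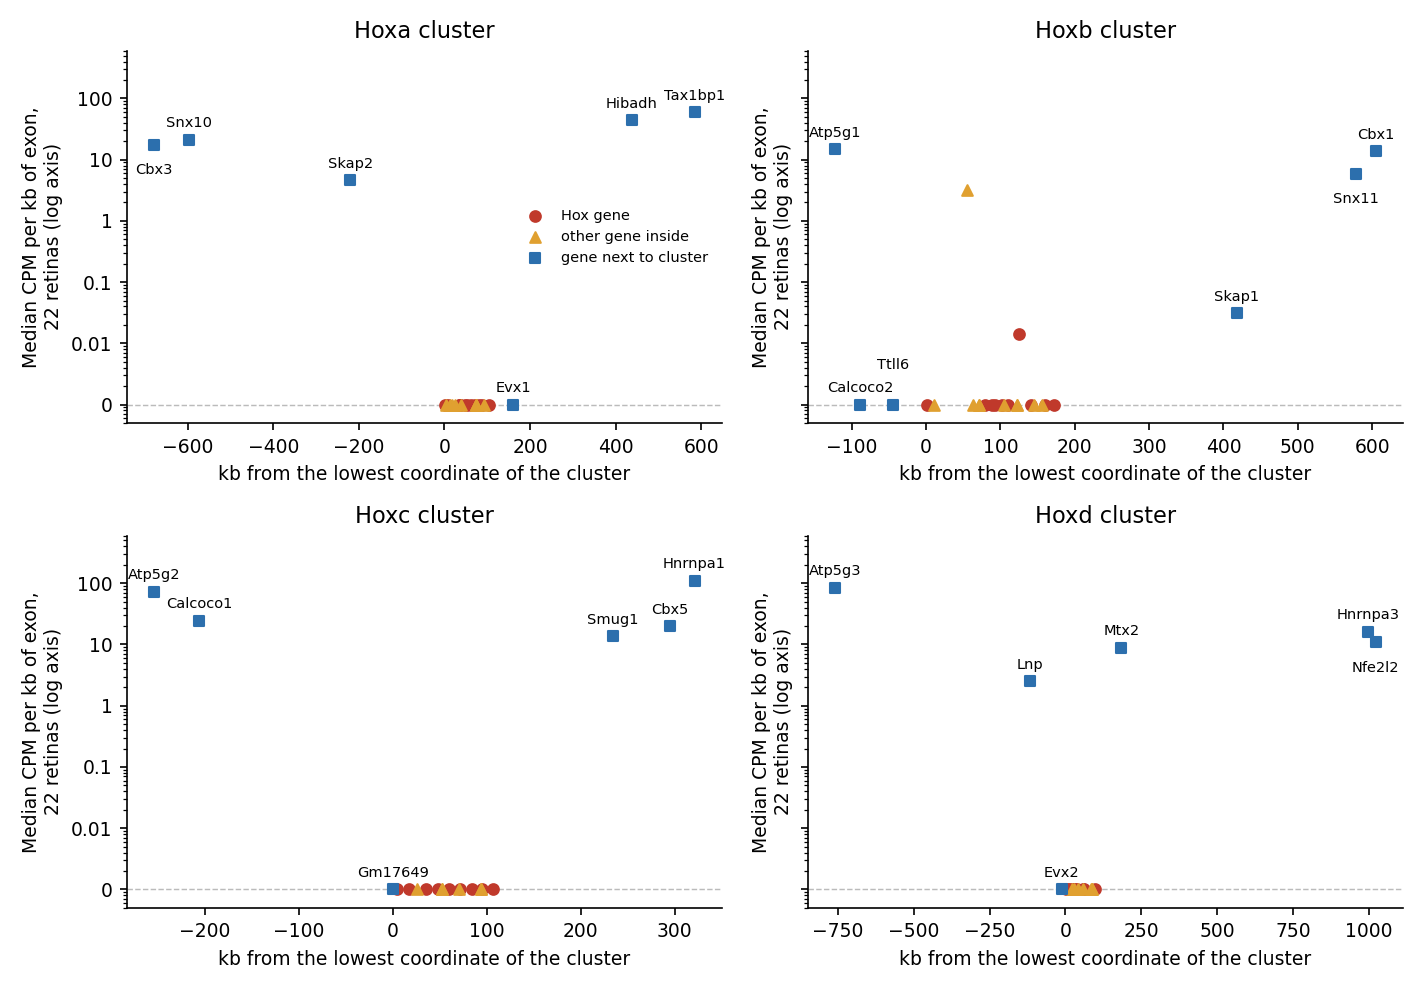
Level of the genes in and around each Hox cluster, as the median over 22 retinas of CPM per kb of exon (log axis, with genes at 0 placed on the dashed line), against the distance in kb of the middle of the gene from the lowest coordinate of the cluster. Red circles are Hox genes, orange triangles are other genes inside the cluster, and blue squares are the 3 nearest protein-coding genes on each side; Hoxb4 is the only Hox gene off the dashed line, and the triangle above 1 is Gm11539.

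The genes around the clusters were mostly counted. Of the 24 protein-coding genes nearest to them, 3 on each side, 18 held at least 62 reads in every retina. Their median levels in the 22 retinas ran from 2.49 CPM per kb of exon for Lnp, beside Hoxd, to 111 CPM per kb for Hnrnpa1, beside Hoxc. The level of Hoxb4, the highest of the Hox genes, was 0.0141 CPM per kb. The homeobox genes Evx1, 52.6 kb beyond Hoxa, and Evx2, 8.45 kb beyond Hoxd, are regulated with the clusters in the embryo and were listed at 0 in all 26 libraries. The nearest counted genes stood 60.7 kb (Mtx2) and 88.9 kb (Lnp) from Hoxd and 143 kb (Skap2) from Hoxa. Skap1, 96.3 kb beyond Hoxb, held 1 to 9 reads in the retinas.

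No neighbour was called in any of the 5 experiments by edgeR's quasi-likelihood test, where at most 1.71% of all genes tested were called. In the DZNep experiment 4 of 18 tested neighbours had an adjusted p under 0.05, with log2 fold changes below the limit of 1, against 22.7% of all genes tested. The share of neighbours was near that background. Tax1bp1, an autophagy receptor gene, stood at a log2 fold change of 0.37 ± 0.0709 (SE; edgeR adjusted p = 0.00725). The median log2 fold change of the 18 neighbours was 0.0656, against -0.00057 over all genes tested. At the same adjusted p limit, 0 of 18 neighbours passed in the UNC1999 experiment, against 0.602% of all genes. There Skap2 had the smallest p, at a log2 fold change of -0.83 ± 0.299 (SE; edgeR adjusted p = 0.147).

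The other genes inside the clusters, most of them noncoding, were also near 0. Of 32 such genes, 28 were listed at 0 throughout, among them the IDs of the microRNA genes Mir10a, Mir10b, Mir196a-1, Mir196a-2, Mir196b and Mir615. PolyA libraries capture few microRNA precursors. Gm15051 held 6 reads in all, 2700086A05Rik held 2 and Hoxb3os held 2. The exception was Gm11539, a pseudogene in the Hoxb cluster, with 742 reads. It held 24 to 65 reads in the 16 retinas of the first library series and 0 to 4 in the 6 retinas of the UNC1999 experiment, which form another library series. Reads on a pseudogene may belong to its parent gene, so its level is uncertain.

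Among the 40 other Polycomb targets, developmental regulators and Cdkn2a that are classical H3K27me3 genes, 27 never passed 3 reads in a library and 9 reached 10 reads in at least 1. Between 1 and 4 of them passed the filter in each experiment. By edgeR's quasi-likelihood test, 0 of 4 tested rose and 1 fell under DZNep, 0 of 3 changed under UNC1999 and Romidepsin, 0 of 4 under UNC0642 and 0 of 1 under GSK2879552. Of all genes tested, 1.02% rose and 0.686% fell under DZNep. Called were 0.368% of all genes for UNC1999, 0.561% for Romidepsin and 0 for UNC0642 and GSK2879552. With so few targets tested, 0 calls carry little information. The gene that fell was Gsx1, a homeobox gene of neural progenitors. Its DZNep controls held 16, 11, 7 and 20 reads and the treated retinas 6 and 1, and the groups did not overlap. The log2 fold change was -1.99 ± 0.556 (SE; edgeR adjusted p = 0.0334). Dropping the fold threshold only loosens the rule on the main fit, so that alternative could not lose the call. With it included, Gsx1 was called in 6 of 13 alternative fits. In 12 of these the adjusted p ran from 0.00593 to 0.149, and DESeq2 gave none. Gsx1 also held fewer reads under Romidepsin, with 11, 8 and 10 in controls and 5, 0 and 1 in treated retinas, which did not overlap. There it did not pass the filter, and without the filter its log2 fold change was -2.33 ± 0.770 (SE; edgeR adjusted p = 0.128). In the fit of all 22 retinas Gsx1 was called lower under Romidepsin, at -2.34 ± 0.758 (SE; edgeR adjusted p = 0.0406). In the UNC1999 experiment Gsx1 held 0, 1 and 6 reads in controls and 2, 2 and 4 in treated retinas, and did not pass the filter.

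Olig3 went the other way. This basic helix-loop-helix gene of the dorsal neural tube held 0, 0, 0 and 2 reads in the DZNep controls and 16 and 5 in the treated retinas, which did not overlap. It was below the filter; without the filter its log2 fold change was 4.01 ± 0.895 (SE; edgeR adjusted p = 0.00506). In the UNC1999 experiment it held 1, 0 and 3 reads in controls and 6, 0 and 2 in treated retinas, and the groups overlapped. Sorted rods held far more Olig3, with 23 and 64 reads in controls and 79 and 29 in GSK2879552 rods, or 2.92 to 4.10 CPM against 0.372 to 0.467 CPM in the DZNep retinas. The rod markers rose under DZNep as given above, and their part in the Olig3 counts was not tested. Olig3 was named after its values had been seen.

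**Figure D5:**
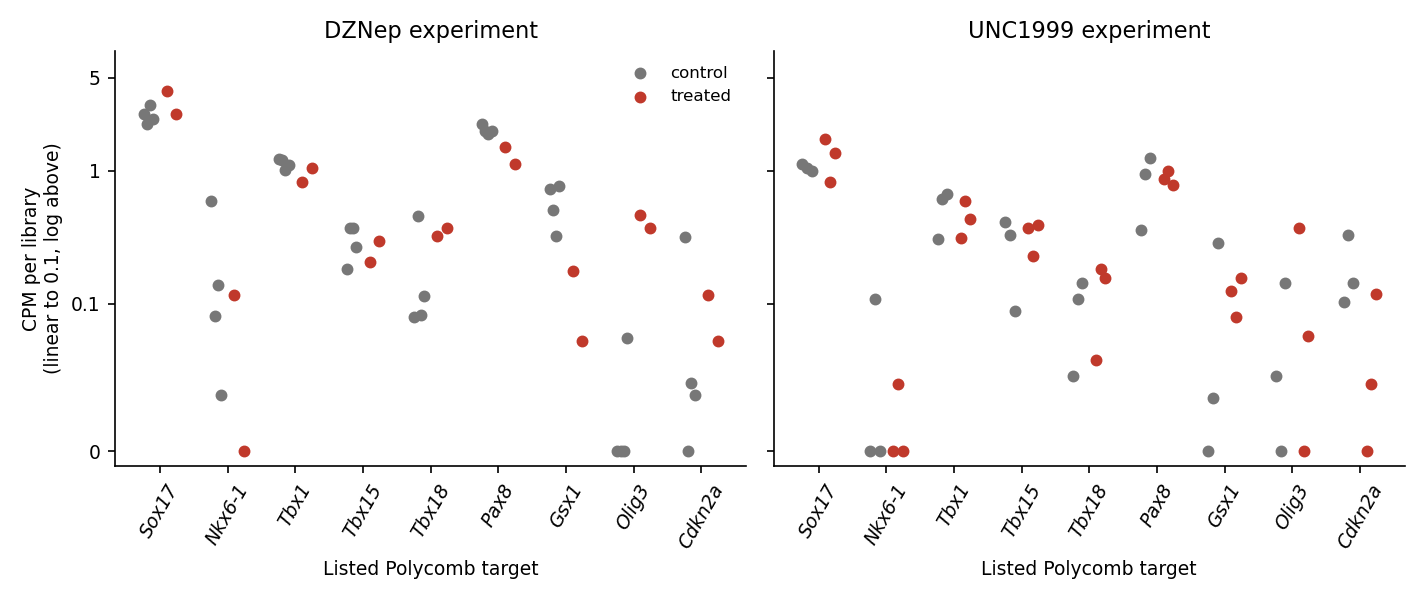
CPM in each library (vertical axis, linear to 0.1 and logarithmic above) of the 9 listed Polycomb targets with at least 10 reads in 1 library, in the DZNep (left) and UNC1999 (right) experiments, for controls (grey) and treated retinas (red). Gsx1 and Pax8 are lower and Olig3 is higher in both DZNep retinas than in all 4 controls, and each of the 9 genes overlaps between the UNC1999 groups. The share of all genes without overlap was not counted, so whether these genes exceed it is not known. With 4 against 2 libraries the smallest two-sided exact permutation p is 0.133. By edgeR, a different measure, 22.7% of all genes tested had an adjusted p under 0.05 for DZNep and 0.602% for UNC1999.

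The other tested targets stayed under the thresholds. Sox17, an endothelial and endoderm gene, held 59, 49, 68 and 64 reads in DZNep controls and 137 and 36 in treated retinas (log2 fold change 0.38 ± 0.215, SE; edgeR adjusted p = 0.230). Pax8, a regulator of thyroid and kidney, did not overlap between the DZNep groups in CPM, at a log2 fold change of -0.57 ± 0.221 (SE; edgeR adjusted p = 0.0959). Under Romidepsin Pax8 stood at -1.28 ± 0.342 (SE; edgeR adjusted p = 0.0946). Under UNC1999 the smallest adjusted p in the list was 0.615, for Sox17. Cdkn2a, the gene of the cell cycle inhibitors p16 and p19 and a known EZH2 target, held 7, 0, 1 and 1 reads in DZNep controls and 4 and 1 in treated retinas. It held 2, 9 and 3 reads in UNC1999 controls and 0, 1 and 3 in treated retinas, and it was named after its values had been seen. The summed level of the whole list was 7.18 to 8.51 CPM in DZNep controls and 6.32 to 8.05 CPM in treated retinas, and 2.82 to 4.14 against 3.23 to 4.16 CPM in the UNC1999 experiment, overlapping in both.

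The machinery itself was expressed in all groups. All 11 PRC2 genes and all 18 PRC1 genes of the lists were tested in every experiment, and 0 were called. Of all genes tested, 1.71% were called for DZNep, 0.368% for UNC1999, 0.561% for Romidepsin and 0 for UNC0642 and GSK2879552. The 0 calls were near those shares. Under DZNep 4 of 11 PRC2 genes had an adjusted p under 0.05, with small changes, where 22.7% of all genes did. Ezh1, an H3K27 methyltransferase, stood at a log2 fold change of 0.32 ± 0.0463 (SE; edgeR adjusted p = 0.00219), and the core subunit gene Suz12 at 0.37 ± 0.0578 (edgeR adjusted p = 0.00322). The median over the PRC2 list was 0.20, against -0.00057 over all genes tested. Under UNC1999 no PRC2 gene reached an adjusted p of 0.05, the smallest being 0.0955 for Phf1, and the list median was 0.0856 against -0.002. Of the 18 PRC1 genes, 6 had an adjusted p under 0.05 under DZNep, where 22.7% of all genes did, and 0 under UNC1999, where 0.602% did. Phc2 had the smallest p in both, at log2 fold changes of 0.32 ± 0.0536 (edgeR adjusted p = 0.00399) and 0.33 ± 0.0783 (edgeR adjusted p = 0.0688).

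The DNA-binding partners of HOX proteins, the PBX, MEIS and PKNOX genes, were present where the Hox genes were not. All 9 were tested in every experiment and 0 were called, where at most 1.71% of all genes tested were called in any experiment. Under DZNep 4 of 9 had an adjusted p under 0.05, against 22.7% of all genes, among them Pbx3 at a log2 fold change of 0.49 ± 0.091 (SE; edgeR adjusted p = 0.00637) and Pbx2 at -0.22 ± 0.0513 (edgeR adjusted p = 0.0184). Under UNC1999 0 of 9 did, against 0.602% of all genes, and Pbx3 stood at 0.45 ± 0.123 (SE, edgeR adjusted p = 0.0873). Among the genes that oppose Polycomb, the H3K27 demethylases and Trithorax genes, 0 of 10 were called under DZNep and 0 of 11 under UNC1999. Of all genes tested, 1.71% and 0.368% were called, so these counts were near the background. Of 15 listed symbols, 11 were matched. Under DZNep 2 of the 10 tested had an adjusted p under 0.05, against 22.7% of all genes. The Trithorax methyltransferase gene Mll3 had the smallest p under DZNep, at 0.30 ± 0.0514 (SE; edgeR adjusted p = 0.0043).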

How the data were processed

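Reads were aligned with HISAT2 2.2.1 and counted per gene with HTSeq 0.11.2, by the submitters' processing notes, on NCBIM37 (mm9) with Ensembl gene models. The deposited values are raw read counts per gene in 26 libraries, and the strand setting of the counter is not given in the sources used here. Per the labels all libraries used a stranded polyA kit, whereas the methods of the study give a SMART-Seq kit for sorted rods. Gene symbols came from GENCODE M1 for 97.9% of IDs; the 786 others held 0.0764% of counts. Each compound was compared with the controls of its own experiment in edgeR 4.0.16 (filterByExpr, TMM, quasi-likelihood F test, Benjamini-Hochberg), with DESeq2 1.42.0 as an alternative in R 4.3.3. The fits were tested on simulated data. Calls needed an adjusted p below 0.05 together with a log2 fold change beyond 1 in either direction. Sums, exact intervals and permutation tests used Python 3.11.15 with scipy 1.17.1. The replicates are labelled biological, with no animals named, so p-values measure only the spread between these samples. The rule for naming Hox genes, at least 10 reads in a library, picked none, so genes with any read were described; some genes are not reported here. From other lists, genes were named if called or among the 3 smallest p, and others were chosen after their values were seen. The members and lists were chosen with earlier results of these data known.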

Additional observations from a re-analysis of the deposited data

Results flagged for a closer look

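Single values stood apart in groups of 4 libraries by Dixon's test at the 95% level, which flags about 1 group in 20 by chance. In the DZNep controls, Hoxd8 stood at 0.0382 CPM in 1 library, from 1 read, and at 0 in the other 3. The summed Hoxd level had the same value, 0.0382 CPM, because Hoxd8 was its only gene with a read. Olig3 stood at 0.0764 CPM in 1 of these controls, from 2 reads, and at 0 in the other 3. A value of 1 or 2 reads beside zeros meets this test by its form alone.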

How the results depend on the processing

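Without the filter on low counts, 4 Hox genes were tested in each retina experiment and 1 in sorted rods, and none was called. In the other alternatives no Hox gene was tested, so they bear on no Hox call. The summed Hox level stayed lower in treated than in control retinas under every alternative that gave a value. Its log2 ratio without Hoxb4 was -1.06 for DZNep, against -2.06 with it, and 8 of 16 control reads were left. Leaving out 1 replicate gave log2 ratios from -2.25 to -1.58 for DZNep, -2.44 to -1.62 for UNC1999, -1.60 to -0.19 for UNC0642 and -1.75 to -0.36 for Romidepsin. No ratio could be given for GSK2879552, nor without treated replicate 1 of DZNep, UNC1999 or UNC0642, where no treated read was left. With the replicate number as a block, 97 genes were called higher and 92 lower for DZNep, 15 and 6 for UNC1999, 30 and 94 for UNC0642, 75 and 16 for Romidepsin and 2 and 1 for GSK2879552, with no Hox gene tested. Single libraries moved the calls over all genes. UNC1999 gave 286 higher and 520 lower without control replicate 3 but 4 and 0 without control replicate 2, against 47 and 11. Its counts were 15 and 0 without control replicate 1, and 23 and 1, 5 and 0 or 18 and 0 without treated replicate 1, 2 or 3. Romidepsin gave 0 without control replicate 2, control replicate 3 or treated replicate 3, 21 and 60 without control replicate 1, 217 and 121 without treated replicate 1 and 101 and 46 without treated replicate 2, against 65 and 25, and 281 and 217 by the likelihood ratio test. Same-numbered samples did not deviate together in every pair (correlations from -0.28 to 0.23), so the numbers were not taken as pairs. The call of Gsx1 under DZNep, whose alternatives were chosen after seeing the data, was lost with the replicate block (log2 fold change -2.19, edgeR adjusted p = 0.0778), in the fit of all 22 retinas (-1.98, adjusted p = 0.108), and without control replicate 2 or 4 or either treated replicate (-2.88 to -1.71), and DESeq2 gave it no adjusted p (-2.08, unadjusted p = 0.017); the causes were not tested. Depth limits each Hox statement to levels above 3 reads.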

Other observations

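Cdkn2a, a classical Polycomb target outside the Hox clusters, held 14 and 14 reads in the UNC0642 controls and 11 and 13 in the treated retinas. In the other libraries it held 0 to 9 reads. The same experiment had the lowest rod marker sums, 9051 to 14237 CPM over its 4 libraries, and the control library with the most Hox reads, 14. Pax7, a regulator of muscle and neural crest progenitors, held 0, 0 and 0 reads in Romidepsin controls and 0, 3 and 6 in treated retinas, and the groups overlapped. Nkx6-1, a regulator of motor neuron and pancreatic progenitors, held 0 and 0 reads in UNC0642 controls and 7 and 2 in treated retinas. The groups did not overlap, but with 2 against 2 libraries the smallest two-sided exact permutation p is 0.333. Without the filter on low counts the edgeR adjusted p was 0.133. The share of all genes without overlap was not counted. These genes were named after their values had been seen.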
